A study of Mus musculus with 16 samples.

Results

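The T cell receptor beta chains of 2 tissues were searched for convergent sequences: complementarity-determining region 3 (CDR3) amino acid strings that were encoded by 2 or more distinct nucleotide sequences. Productive, full-length, high-confidence beta chain (TRB) contigs of skin and lymph node were pooled for the search. Of 4294 TRB CDR3 strings, 163 were convergent (3.80%, 95% exact binomial interval 3.24 to 4.41%), and the other 4131 had 1 encoding. The 163 strings held 358 of the 4489 distinct nucleotide sequences. Of them, 139 had 2 encodings, 18 had 3, 4 had 4 and 2 had 5.

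The cells were CD8+CD44+ T cells sorted from C57BL/6 mice aged 16 weeks with melanoma-associated vitiligo (MAV), a loss of skin pigment that follows an immune response to melanoma, at 45 days after tumor surgery. Skin was digested for 45 minutes in DNase (0.2 mg/mL) and collagenase (3 mg/mL), whereas the tumor-draining lymph node was dissociated mechanically with a 40 µm filter. Each tissue gave 1 receptor library, sequenced on 4 lanes, so that no comparison below has replicates and every interval covers counting error only. All mice carried MAV, and no group without it was analysed here. The sources used here do not say how many mice were pooled, and encodings of 1 string that came from the same mouse and from different mice cannot be told apart.

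A TRB CDR3 is made when a V, a D and a J segment are joined in a developing thymocyte, with bases trimmed from the segment ends and untemplated bases added by terminal deoxynucleotidyl transferase. Because most amino acids have several codons, and because several V segments begin the CDR3 with the same residues, separate joining events can end in the same protein. Such convergent recombination is known to favour CDR3s that need few untemplated bases. Cells that carry 1 string in different nucleotide sequences therefore descend from different thymocytes, provided that the sequences are free of error.

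Skin gave 1760 cells with a TRB and 818 distinct TRB nucleotide sequences, with a median of 4 unique molecular identifiers (UMIs) per contig. The lymph node gave 3613 cells and 3730 nucleotide sequences, with a median of 7 UMIs. A single UMI lay behind 7.51% of convergent and 9.94% of other TRB contigs in skin, and behind 3.94% of convergent and 4.76% of other contigs in the lymph node. The 2 tables shared 12 cell barcodes, and no cell carried 2 encodings of the same string. Convergent strings were 51 of 785 strings in skin (6.50%, 4.88 to 8.45%) and 146 of 3594 in the lymph node (4.06%, 3.44 to 4.76%). They were carried by 212 of 1760 skin cells (12.05%, 10.6 to 13.7%) and 329 of 3613 lymph node cells (9.11%, 8.19 to 10.1%). Membership was set over the pool, so a string could be convergent through encodings of the other tissue. Inside skin alone, 25 of 785 strings had 2 or more encodings (3.18%, 2.07 to 4.67%). Inside the lymph node alone, 118 of 3594 had them (3.28%, 2.73 to 3.92%).

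The string with the most encodings and many skin cells was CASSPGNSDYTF, called TRBV10 with TRBJ1-2. Its 5 sequences are shown, 5′ to 3′, because they mark out where 1 protein was spelled in different ways; capitals mark the bases at which its encodings differ.
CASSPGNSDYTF encoding 1: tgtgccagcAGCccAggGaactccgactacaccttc
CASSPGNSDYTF encoding 2: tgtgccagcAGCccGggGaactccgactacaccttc
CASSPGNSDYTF encoding 3: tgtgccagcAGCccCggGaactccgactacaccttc
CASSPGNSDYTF encoding 4: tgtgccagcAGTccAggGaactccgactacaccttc
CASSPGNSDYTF encoding 5: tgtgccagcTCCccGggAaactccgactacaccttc
Encodings 1, 2 and 3 had 14, 8 and 5 skin cells and differed at the last base of the proline codon. Encodings 4 and 5 had 1 skin cell each. Only encoding 1 was also found in the lymph node, in 3 cells. The string thus had 29 skin cells and 3 lymph node cells.

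The other string of 5 encodings, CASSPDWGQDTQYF with TRBJ2-5, lay mostly in the lymph node. It is shown because its encodings started from different V segments.
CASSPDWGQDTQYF encoding 1, TRBV3: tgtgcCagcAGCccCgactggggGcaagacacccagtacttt
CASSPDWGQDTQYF encoding 2, TRBV16: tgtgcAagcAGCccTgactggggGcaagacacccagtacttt
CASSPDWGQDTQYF encoding 3, TRBV3: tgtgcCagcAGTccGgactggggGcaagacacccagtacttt
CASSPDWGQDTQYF encoding 4, TRBV12-2: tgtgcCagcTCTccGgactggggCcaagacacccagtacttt
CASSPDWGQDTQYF encoding 5, TRBV12-2: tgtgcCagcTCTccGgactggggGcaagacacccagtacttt
Encoding 1 was found in 1 skin cell and 3 lymph node cells, encoding 2 in 2 lymph node cells, and the other 3 in 1 lymph node cell each. Its encodings paired with 5 alpha chain (TRA) strings, none of them common to 2 encodings.

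A family of convergent strings in skin joined TRBV19 (chr6:41178375-41179048 on the plus strand, mm10, annotated as a V gene) to TRBJ1-1 (chr6:41533864-41533911, plus strand, a J gene). These 8 sequences are shown because 3 of the 4 convergent strings with most skin cells belong to the family.
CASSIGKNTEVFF encoding 1: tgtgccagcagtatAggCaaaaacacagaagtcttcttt
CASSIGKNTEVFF encoding 2: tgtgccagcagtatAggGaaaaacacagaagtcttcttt
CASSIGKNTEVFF encoding 3: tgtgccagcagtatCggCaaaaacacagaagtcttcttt
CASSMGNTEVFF encoding 1: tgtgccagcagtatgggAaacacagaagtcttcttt
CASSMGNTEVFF encoding 2: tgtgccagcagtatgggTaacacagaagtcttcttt
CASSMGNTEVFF encoding 3: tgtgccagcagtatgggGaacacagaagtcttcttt
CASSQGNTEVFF encoding 1: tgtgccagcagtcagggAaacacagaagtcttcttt
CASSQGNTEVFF encoding 2: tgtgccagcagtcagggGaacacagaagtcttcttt
The germline TRBV19 segment opens the CDR3 with tgtgccagcagtatag, and the germline TRBJ1-1 segment closes it with caaacacagaagtcttcttt, both read from the mm10 annotation. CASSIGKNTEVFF had 32 skin cells and 6 lymph node cells, of which 30 and 6 carried encoding 1. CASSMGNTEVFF had 16, 5 and 1 skin cells for its 3 encodings and no lymph node cell. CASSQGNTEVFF had 10 and 2 skin cells, again with no lymph node cell.

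Over all TRBV19 to TRBJ1-1 joins, 7 of 50 strings were convergent (14%), and these 7 held 72 of the 141 skin cells and 8 of the 40 lymph node cells with that join. Members of the family were close to each other: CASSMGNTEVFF had 10 other strings in the data at 1 substitution, of which 7 used TRBV19. Of those with 1 encoding, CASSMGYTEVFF had 16 skin cells and the others at most 4. The family also held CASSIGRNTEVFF, with 3 skin cells over 2 encodings, and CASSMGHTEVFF, with 1 skin cell and 1 lymph node cell in different encodings.

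**Figure D1:**
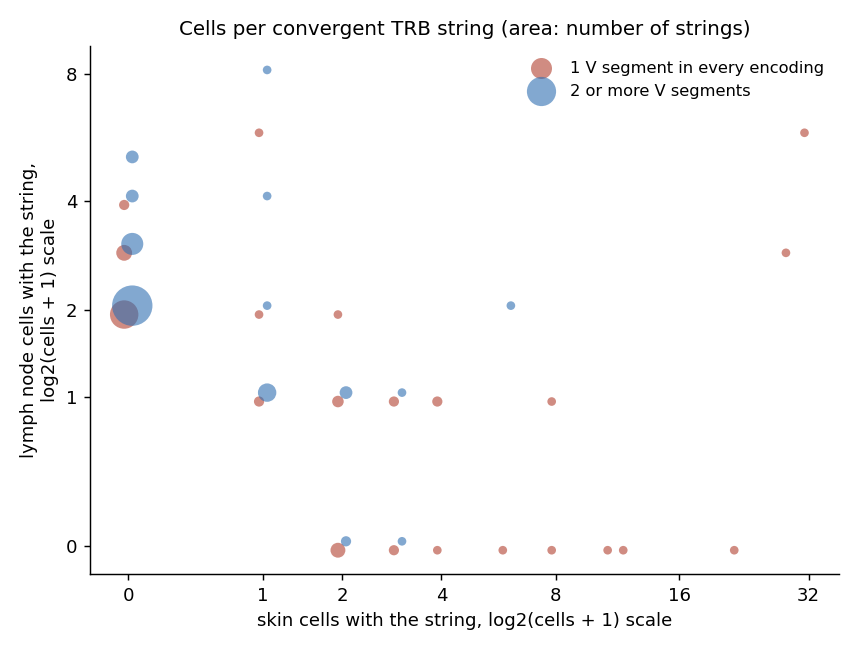
Each convergent TRB string is placed by its number of skin cells (x axis) and lymph node cells (y axis), both on a log2(cells + 1) scale. Point area grows with the number of strings at that position, and the colours, offset slightly, separate the 64 strings whose encodings share 1 V segment from the 99 with several. Strings with many skin cells lie among those of 1 V segment, such as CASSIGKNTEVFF at 32 skin cells and 6 lymph node cells.

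Convergent strings were shorter than strings with 1 encoding. They averaged 13.3 ± 1.29 residues (SD, n = 163 strings) against 13.9 ± 1.43 residues for strings with 1 encoding (n = 4131), a difference of -0.58 residues. Strings of 12 residues or less were 27.0% of convergent strings and 16.3% of the others, and strings of 15 or more were 16.6% and 33.8%. The order held in each tissue: 13.6 ± 1.13 against 14.1 ± 1.49 residues in skin (n = 51 and 734), and 13.3 ± 1.33 against 13.9 ± 1.41 residues in the lymph node (n = 146 and 3448). Strings with 1 encoding that were found in 2 or more cells, which like a convergent string had at least 2 chances to be seen, averaged 13.98 ± 1.36 residues (n = 401). The spreads overlapped widely, and strings are not replicates of a condition.

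Less of the convergent CDR3s lay outside the germline segments. The stretch between the bases that matched the V segment and those that matched the J segment was 8.16 ± 3.38 bases in 358 convergent nucleotide sequences and 9.92 ± 3.83 bases in 4131 others. The longest match to a D segment inside it was alike over both tissues together. It was 6.43 ± 2.78 bases in convergent and 6.63 ± 2.82 bases in other sequences. What remained outside V, D and J was 1.73 ± 1.57 bases in convergent sequences against 3.28 ± 2.39 bases in the others. At a fixed CDR3 length the difference kept its direction: 1.46 against 2.03 bases at 12 residues, 1.19 against 2.47 at 13, 2.34 against 3.23 at 14, and 2.12 against 4.03 at 15. It was present in skin (2.32 ± 1.67 against 3.79 ± 2.30 bases) and in the lymph node (1.55 ± 1.499 against 3.18 ± 2.39 bases). The longest D match in skin was shorter in convergent sequences, at 5.65 ± 2.38 against 6.53 ± 2.77 bases. Lymph node values were 6.64 ± 2.83 and 6.65 ± 2.82 bases.

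**Figure D2:**
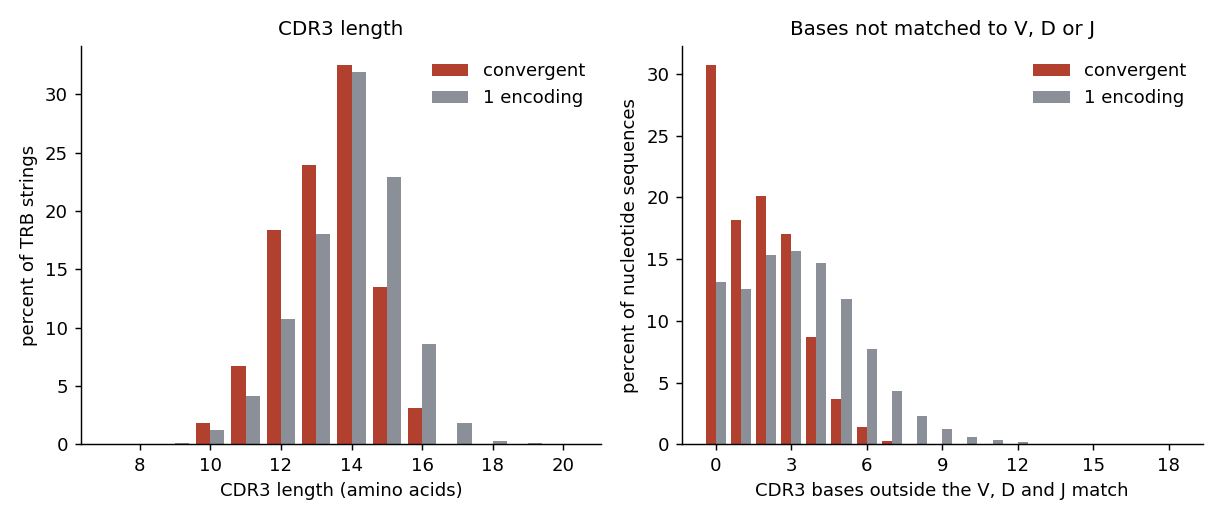
The left panel gives the percent of TRB strings at each CDR3 length in amino acids, and the right panel the percent of distinct nucleotide sequences with each number of bases outside the V, D and J match, for convergent strings and for strings with 1 encoding. Convergent strings lie toward shorter lengths (mean 13.3 against 13.9 residues) and fewer such bases (mean 1.73 against 3.28).

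Convergent strings also sat among more relatives. Of the 163, 141 (86.5%, 80.3 to 91.3%) had at least 1 other string in the data that differed at a single residue, against 1520 of 4131 strings with 1 encoding (36.8%, 35.3 to 38.3%). The mean number of such neighbours was 3.04 ± 2.79 for convergent strings and 0.77 ± 1.38 for the others. Within single lengths the shares were 86.7% against 48.1% at 12 residues, 89.7% against 45.6% at 13, 90.6% against 43.0% at 14 and 81.8% against 26.6% at 15. The beginnings differed as well: CASSLG opened 34 convergent strings (20.9%, 14.9 to 27.9%) and 229 others (5.54%, 4.87 to 6.29%), and CASSPG opened 17 convergent strings (10.4%, 6.19 to 16.2%) and 141 others (3.41%, 2.88 to 4.01%). CASG was about as common in both sets, at 10.4% and 10.2%.

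The 2 largest gains in share among convergent sequences were of J segments. TRBJ2-7 (chr6:41543810-41543856, plus strand, a J gene) made up 110 of 358 convergent sequences (30.7%, 26.0 to 35.8%) and 840 of 4131 others (20.3%, 19.1 to 21.6%). TRBJ2-1 made up 19.6% of convergent and 12.7% of other sequences. TRBJ1-4 went the other way, with 6 convergent sequences (1.68%, 0.617 to 3.61%) against 290 others (7.02%, 6.26 to 7.84%). Of the V segments, TRBV12-2 had the most convergent sequences, 44 (12.3%, 9.07 to 16.1%) against 292 others (7.07%, 6.31 to 7.89%). TRBV1 had 8 (2.23%) against 221 (5.35%), and TRBV2 had none against 105 (2.54%), where a count of 0 of 358 has an exact upper limit of 1.03%. The germline CDR3 beginnings of TRBV12-1 and TRBV12-2 are identical, as are those of TRBV13-1 and TRBV13-3 and those of TRBV2 and TRBV5, so the call rests there on bases outside the CDR3. Encodings of 1 string always shared their J segment and often their V. The convergent sequences are thus not independent, and their segment intervals, here and by tissue below, are too narrow.

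The segments of the convergent sequences differed between tissues. In skin, TRBV19 made up 19 of 84 convergent sequences (22.6%, 14.2 to 33.0%) against 74 of 734 others (10.1%, 7.999 to 12.5%), and TRBJ1-1 again 19 (22.6%) against 92 (12.5%). In the lymph node, TRBV19 made up 3.55% of convergent and 5.57% of other sequences, and TRBJ1-1 6.38% and 11.3%. TRBJ2-7 stood apart most in the lymph node, at 95 of 282 convergent sequences (33.7%, 28.2 to 39.5%) against 718 of 3448 others (20.8%, 19.5 to 22.2%), while in skin it was 20.2% and 17.2%, with overlapping intervals. All 44 convergent TRBV12-2 sequences were found in the lymph node (15.6% of its convergent sequences, against 7.80% of the others), and skin had 0 of 84 against 24 others (3.27%).

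**Figure D3:**
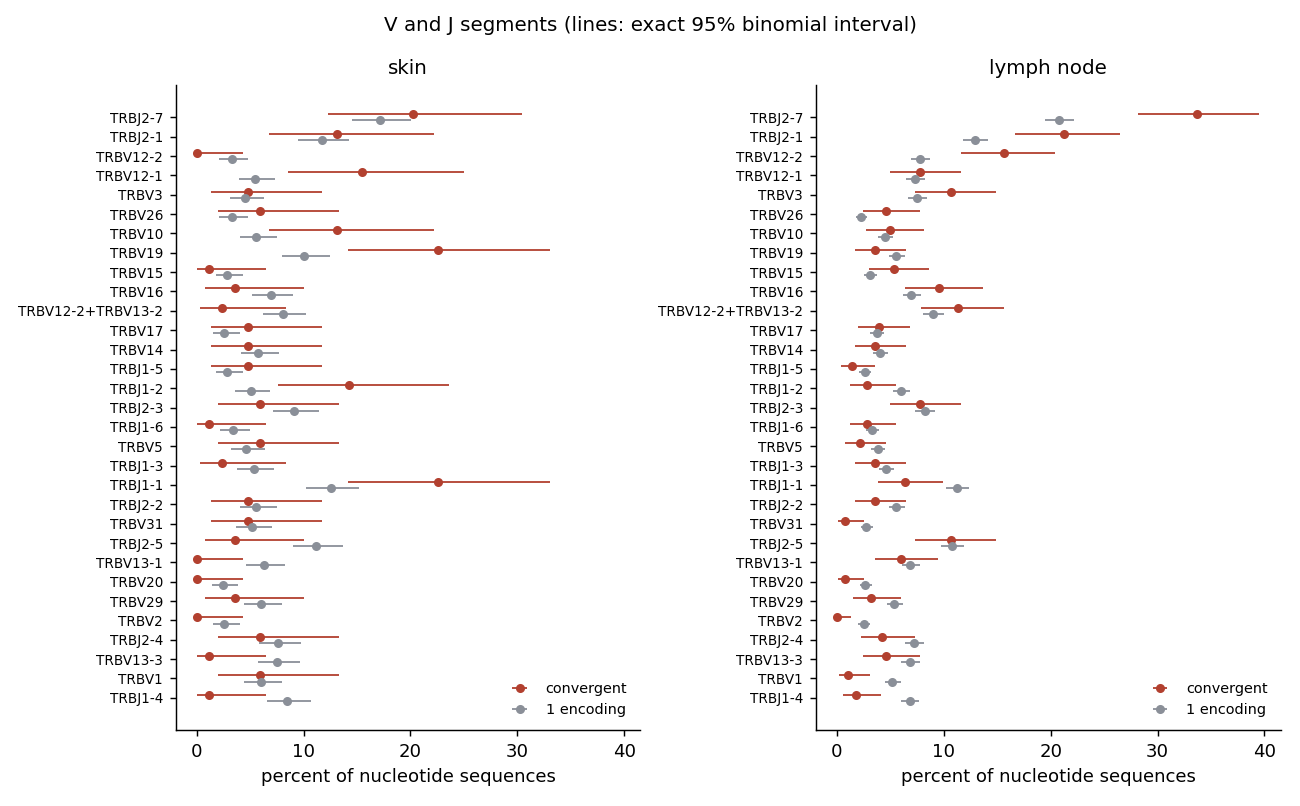
For skin (left) and lymph node (right), points give the percent of distinct TRB nucleotide sequences that used each V or J segment, for convergent strings and for strings with 1 encoding, with exact 95% binomial intervals as lines. In skin TRBV19 stands at 22.6% of convergent and 10.1% of other sequences, and in the lymph node TRBJ2-7 stands at 33.7% and 20.8%. The intervals treat encodings of 1 string as independent, which they are not.

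The name TRBV10 needs a limit. The mm10 annotation holds Trbv10 as a pseudogene, and the 217 nucleotide sequences so called opened with tgtgccagcagc in 181 cases (83.4%), the same 12 bases as the germline Trbv4 beginning, while no contig was called TRBV4. Germline TRBV2, TRBV3 and TRBV5 open with these 12 bases too, so the match is not particular to Trbv4. In the lymph node gene counts, 131 of 140 cells with a contig called TRBV10 had a UMI of Trbv4 (93.6%), against 42 of 2762 other cells with a TRB (1.52%), at median depths of 4576 and 4543 UMIs per cell. The name TRBV10 is kept here as the contig tables give it.

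All 163 convergent strings used 1 J segment in every encoding, but 99 of them (60.7%, 52.8 to 68.3%) used 2 or more V segments and 64 (39.3%, 31.7 to 47.2%) used 1. In 2 of the 64, a TRBV13-2 call and the joint call TRBV12-2+TRBV13-2 were counted as the same V, while the segment shares above keep them apart. The 2 kinds were alike in CDR3 length, 13.2 ± 1.30 residues with 1 V (n = 64) and 13.4 ± 1.29 with several (n = 99). They were also alike in bases outside V, D and J, at 1.73 ± 1.58 and 1.72 ± 1.58 bases. A clear example of several V segments was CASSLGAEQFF with TRBJ2-1, found in 5 lymph node cells.
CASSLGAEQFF encoding 1, TRBV12-2: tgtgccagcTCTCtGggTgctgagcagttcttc
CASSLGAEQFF encoding 2, TRBV3: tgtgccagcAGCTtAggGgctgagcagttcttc
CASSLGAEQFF encoding 3, TRBV15: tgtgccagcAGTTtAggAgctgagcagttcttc
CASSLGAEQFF encoding 4, TRBV12-2: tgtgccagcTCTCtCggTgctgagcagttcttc
No more than 3 bases in any of these lay between the V and J match, and none lay outside V, D and J. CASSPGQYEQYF with TRBJ2-7 also had several V segments, with 4 encodings of TRBV10, TRBV15 and TRBV12-2 in 1 lymph node cell each. By contrast all 4 encodings of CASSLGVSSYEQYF used TRBV12-1 with TRBJ2-7, and each was found in 1 skin cell, 1 of them also in 1 lymph node cell. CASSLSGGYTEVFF joined TRBV26 to TRBJ1-1 in 2 encodings, with 7 and 4 skin cells.

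Where the encodings of a string differed depended on whether they shared a V segment. Among 105 pairs of encodings with the same V, the members differed at 1.80 ± 0.90 bases, and 91.5% of those bases were the third base of a codon. By construction none of them lay in the part that both matched to the V. Among 132 pairs with different V segments, the members differed at 3.55 ± 1.77 bases, of which 62.0% were the third base of a codon and 61.0% lay where both sequences matched their own germline V.

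Skin and lymph node differed in how often, and in which way, a protein was met again. To compare tables of unequal size, all pairs of distinct nucleotide sequences within a tissue were counted. In skin 45 of 334153 pairs had the same amino acid string, or 135 per 1000000 pairs (95% Poisson interval 98.2 to 180). In the lymph node 159 of 6954585 pairs did, or 22.9 per 1000000 (19.4 to 26.7), so the rate was 5.89-fold higher in skin. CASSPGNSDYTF alone gave 10 of the skin pairs, and without it the skin rate was 106.

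The excess in skin lay in pairs that used the same V segment. These were 42 of the 45 skin pairs (a rate of 126, 90.6 to 170) and 50 of the 159 lymph node pairs (a rate of 7.19, 5.34 to 9.48), a 17.5-fold ratio. Pairs with different V segments were 3 in skin (a rate of 8.98, 1.85 to 26.2) and 109 in the lymph node (a rate of 15.7, 12.9 to 18.9), with overlapping intervals. Counted by string, 22 of 25 strings with 2 or more encodings inside skin used 1 V (88.0%, 68.8 to 97.5%), against 37 of 118 inside the lymph node (31.4%, 23.1 to 40.5%). Pairs 1 base apart were 18 of 45 in skin and 41 of 159 in the lymph node. With such encodings of the same V and J merged, skin had 65.4 and the lymph node 17.7 such pairs per 1000000, of which 85.7% (skin) and 17.4% (lymph node) used 1 V. Skin is 1 library and so is the lymph node, so that tissue, digestion and depth cannot be told apart here.

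**Figure D4:**
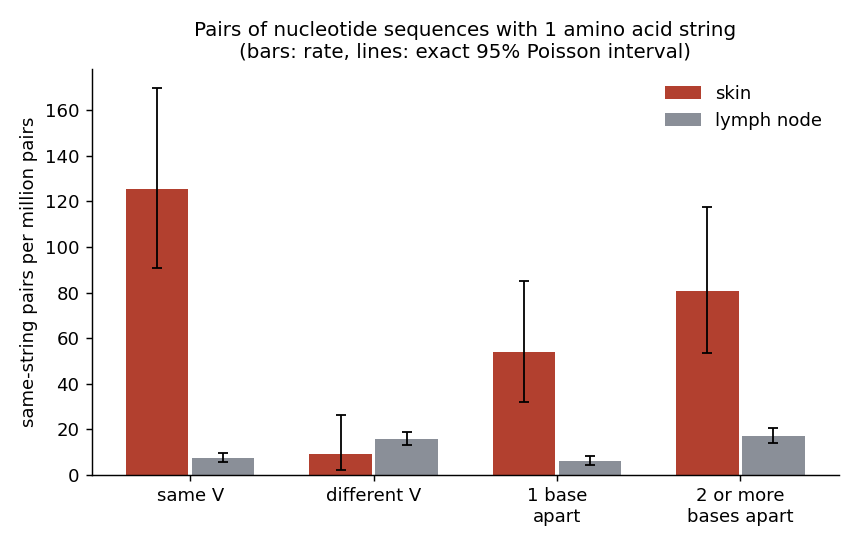
Bars give the number of pairs of distinct TRB nucleotide sequences with the same amino acid string per 1000000 pairs, within skin and within the lymph node, split by whether the pair used the same V segment and by the number of bases at which it differed; lines are exact 95% Poisson intervals. Same-V pairs reach 126 in skin, against 7.19 in the lymph node, while the intervals of the different-V pairs overlap.

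Sharing between tissues was 20.9% for convergent strings and 12.7% for other repeated strings, with intervals that overlap. Of the 163, 34 were in both (20.9%, 14.9 to 27.9%), 17 in skin only and 112 in the lymph node only. Of the 401 strings with 1 encoding and 2 or more cells, 51 were in both tissues (12.7%, 9.62 to 16.4%). Limited to strings of exactly 2 cells, 12 of 100 convergent strings (12%, 6.36 to 20.0%) and 13 of 252 others (5.16%, 2.78 to 8.66%) were in both, with intervals that overlap. By the rule a convergent string holds cells of 2 or more joining events, while those of another repeated string can descend from 1. These contrasts can therefore follow in part from the rule. In 26 of the 34 shared convergent strings no encoding was common to both tissues. For 12 of the 26 the rule fixed this, since they had exactly 2 cells, 1 for each encoding. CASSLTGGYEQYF, with more cells, was also one of the 26. Its 6 skin cells used TRBV14 and its 2 lymph node cells used TRBV16 and TRBV12-1, in different nucleotide sequences. A string of 4 encodings, called TRBV12-2+TRBV13-2 with TRBJ2-3, did likewise: 1 encoding was seen in 1 skin cell and the other 3 in 6 lymph node cells.

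A convergent nucleotide sequence had more cells than others in the lymph node, and in skin the shares overlapped. In the lymph node 35 of 282 convergent sequences had 2 or more cells (12.4%, 8.80 to 16.8%), against 181 of 3448 others (5.25%, 4.53 to 6.05%), and the means were 1.17 ± 0.53 and 1.07 ± 0.35 cells. In skin 31 of 84 convergent sequences had 2 or more cells (36.9%, 26.6 to 48.1%), against 217 of 734 others (29.6%, 26.3 to 33.0%), and the means were 2.54 ± 4.03 and 2.21 ± 4.89 cells. The most cells on 1 sequence were 30 among convergent and 101 among other skin sequences. Strings whose encodings shared 1 V had 4.47 ± 6.38 cells, against 2.596 ± 1.18 cells for those with several V segments, but the median was 2 cells for both kinds and the highest 38 and 9.

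Each TRB chain works as a pair with an alpha chain (TRA), so the paired TRA shows whether 2 encodings also made the same whole receptor. Cells with exactly 1 TRB and at least 1 TRA gave a partner for 252 of 358 convergent sequences (70.4%) and 2806 of 4131 others (67.9%). A convergent TRB string had 2.13 ± 1.16 different TRA strings (n = 142), against 1.15 ± 0.37 for a string with 1 encoding (n = 2806). With exactly 2 paired cells a string had 2.18 ± 0.50 TRA strings when convergent (n = 61) and 1.30 ± 0.51 otherwise (n = 136). By the rule a convergent string holds 2 or more nucleotide sequences, and so cells of separate joining events. Both contrasts therefore follow in part from the rule itself. For a single nucleotide sequence with 2 or more paired cells, the numbers were 1.67 ± 0.84 in convergent strings (n = 43) and 1.40 ± 0.59 in others (n = 237). Cells without any TRA were 26.9% of convergent and 20.99% of other skin cells, and 21.3% and 20.8% in the lymph node.

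In 4 of the 92 strings with 2 or more paired encodings (4.35%, 1.20 to 10.8%), different TRB encodings shared a TRA amino acid string. All 4 used 1 V segment and all had skin cells: they were 4 of 37 strings with 1 V and 0 of 55 with several V segments, where 0 of 55 allows a share of up to 5.45%. They were 4 of 34 strings with a skin cell and 0 of 58 strings of the lymph node only, which allows up to 5.17%. In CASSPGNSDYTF, encodings 1, 2 and 3 were each found with the TRA string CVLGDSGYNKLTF of TRAV6-2 and TRAJ11, in 8, 6 and 5 cells. Capitals below mark the bases at which TRA sequences of the same string differ.
TRA with encodings 1 and 2: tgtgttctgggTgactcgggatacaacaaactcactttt
TRA with encoding 3: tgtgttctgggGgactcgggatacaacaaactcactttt
Encoding 1 was also found with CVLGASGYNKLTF and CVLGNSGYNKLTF, in 2 cells each and of the same TRAV6-2 and TRAJ11. That TRA join was 4 of 805 distinct TRA sequences in skin (0.497%) and 2 of 3103 in the lymph node (0.0645%), and each of these sequences was found with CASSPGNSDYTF.

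In the other 3 strings both chains were spelled differently while both proteins were the same. Their TRB and TRA sequences are shown as pairs for that reason, with the differing bases in capitals. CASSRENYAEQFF used TRBV17 and TRBJ2-1 and paired with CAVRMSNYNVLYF in 1 skin cell for each encoding. A string called TRBV10 with TRBJ2-2 paired with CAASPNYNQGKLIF in 4 skin cells and 1 skin cell. That TRA string was also found with other TRB strings: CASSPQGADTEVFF in 2 skin cells, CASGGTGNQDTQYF in 1 skin cell and another in 1 lymph node cell. The last pair joined TRBV5 to TRBJ2-4, and its TRA of TRAV16N and TRAJ32 was found in 1 and 3 skin cells. This TRA string was also found in 1 skin cell with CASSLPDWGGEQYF.
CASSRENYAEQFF encoding 1, TRB: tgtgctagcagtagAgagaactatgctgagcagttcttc
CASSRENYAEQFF encoding 1, TRA: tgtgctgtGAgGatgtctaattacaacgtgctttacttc
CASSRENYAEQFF encoding 2, TRB: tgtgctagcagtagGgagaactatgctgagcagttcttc
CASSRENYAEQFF encoding 2, TRA: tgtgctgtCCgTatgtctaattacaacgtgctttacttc
TRBV10 and TRBJ2-2 string, encoding 1, TRB: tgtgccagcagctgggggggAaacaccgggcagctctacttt
TRBV10 and TRBJ2-2 string, encoding 1, TRA: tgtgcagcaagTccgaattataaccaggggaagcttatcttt
TRBV10 and TRBJ2-2 string, encoding 2, TRB: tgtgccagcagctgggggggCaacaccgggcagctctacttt
TRBV10 and TRBJ2-2 string, encoding 2, TRA: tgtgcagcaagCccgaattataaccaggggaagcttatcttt
TRBV5 string, encoding 1, TRB: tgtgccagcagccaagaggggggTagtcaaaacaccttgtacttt
TRBV5 string, encoding 1, TRA: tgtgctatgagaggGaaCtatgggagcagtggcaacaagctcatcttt
TRBV5 string, encoding 2, TRB: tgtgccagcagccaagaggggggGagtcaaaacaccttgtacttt
TRBV5 string, encoding 2, TRA: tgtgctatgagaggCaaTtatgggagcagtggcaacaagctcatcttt
In each of these 3 strings the TRB encodings differed at 1 base. Merging encodings 1 base apart with the same V and J therefore left 0% of strings with a shared TRA, and asking for 3 or more UMIs per contig left 2.38%. The contigs of the TRBV10 and TRBJ2-2 string rested on a median of 1 UMI each, and those of the other 2 strings on medians of 3 to 6.

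Within the TRBV19 family, the encodings of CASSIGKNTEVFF had related alpha chains but no TRA string in common. Each of the 3 encodings of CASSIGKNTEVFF was found with TRAV13-1 chains that opened with CALER: encoding 1 with CALERSGSGGKLTL in 18 skin cells and 2 lymph node cells, encoding 2 with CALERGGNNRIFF in 1 skin cell, and encoding 3 with a longer chain of TRAJ52 in 1 skin cell. Encoding 1 was also found with chains of TRAV6-6, TRAV7-3 and TRAV12-2, in 1 cell each. Chains that open with CALER were 7 of 805 distinct TRA sequences in skin (0.870%, 0.350 to 1.78%) and 26 of 3103 in the lymph node (0.838%, 0.548 to 1.23%). Different TRB strings of the family also met the same TRA: encoding 1 of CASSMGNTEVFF in 10 skin cells and encoding 1 of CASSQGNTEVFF in 4 skin cells had 1 TRA nucleotide sequence, called TRAV5-4 in one and TRAV5D-4 in the other, with TRAJ28.
TRA of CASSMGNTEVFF and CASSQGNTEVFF: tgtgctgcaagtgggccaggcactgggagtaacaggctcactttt
Their other encodings paired with TRAV6-6, TRAV6D-5, TRAV7-3 and TRAV12D-2 chains.

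Gene counts were joined to receptors in the lymph node, where 282 cells of the gene table carried a convergent TRB and 2620 carried another TRB. Skin gene counts were not analysed here. The convergent cells held 1327351 UMIs, with a median of 4599 UMIs and 1476 genes per cell, and the other cells 12027444 UMIs, with medians of 4542 UMIs and 1468 genes. Mitochondrial genes took 2.63% and 2.64% of UMIs. Counts were summed over each set, scaled to counts per 1000000 UMIs (CPM), and compared as a ratio with an exact interval. The cells of 1 library are not replicates, so no test was made. Cells with 2 or more TRB sequences were kept, and these have more chances to carry a convergent string. In the lymph node receptor data, 272 of 329 convergent cells had exactly 1 TRB, against 3219 of all 3613 cells with a TRB.

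The sets were alike for most of the 8841 genes with 50 or more UMIs. The median log2 ratio was -0.03, and 218 genes (2.47%) differed by 2-fold or more, 32 of them higher (0.362%) and 186 lower (2.1%) in convergent cells. The genes of the sort were close: Cd3e had 849 CPM in convergent and 915 CPM in other cells, Cd8a 524 and 561 CPM, Cd8b1 1362 and 1402 CPM, and Cd44 61.0 and 72.0 CPM. Of 13 stem-like memory genes none reached 2-fold, with a median log2 ratio of -0.05. The highest were Satb1, a chromatin organizer, with 206 CPM in convergent and 187 CPM in other cells, and Il7r, the interleukin 7 receptor, with 542 and 503 CPM. The lowest were Bach2, a transcriptional repressor, with 27.1 and 30.5 CPM, and Slamf6, with 35.4 and 51.5 CPM and a ratio of 0.69 (0.50 to 0.93).

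Several inhibitory receptors and genes that accompany them were lower in convergent cells. Of 10 members with enough UMIs, 5 were lower by 2-fold or more in convergent cells and none higher, where 2.1% of all genes were lower, and the median log2 ratio was -0.95. Cd200 had 1 UMI in convergent cells and 115 UMIs in other cells, a CPM ratio of 0.079 (0.002 to 0.45). Nrn1, a neuritin, had 4 and 133 UMIs, with a ratio of 0.27 (0.07 to 0.71). Izumo1r, the folate receptor 4 gene, had 9 and 272 UMIs, with a ratio of 0.30 (0.14 to 0.58). Ctla4, a checkpoint receptor, had 10 and 198 UMIs, with a ratio of 0.46 (0.22 to 0.86), and Pdcd1, which encodes PD-1, had 2 and 66 UMIs, with an interval of 0.03 to 1.03 that includes 1. No cell held more than 8 UMIs of any of these 5 genes. Nt5e (12.8 and 11.9 CPM) and Cd160 (45.2 and 42.2 CPM) were the highest members. These are genes of few cells: the convergent cells with a UMI numbered 1 for Cd200, 3 for Nrn1, 7 for Izumo1r, 8 for Ctla4 and 2 for Pdcd1.

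Receptors of the NK type, which memory CD8 T cells also carry, leaned the other way. Of 9 members 8 had a ratio above 1, as did 3989 of all 8841 genes. Only Klrc2 was higher by 2-fold or more, against 0.362% of all genes, and the median log2 ratio was 0.48. Klrc2 had 9.79 CPM in convergent and 4.16 CPM in other cells, a ratio of 2.36 (1.17 to 4.40) from 13 and 50 UMIs, and Klrc1, which encodes NKG2A, had 42.2 and 24.0 CPM, a ratio of 1.76 (1.30 to 2.34). The lowest members were Klra3, at 0.86 (0.56 to 1.25), and Klrd1, at 1.11 (0.99 to 1.24). No NK receptor passed 2-fold when contigs needed 2 or more UMIs or when cells with exactly 1 TRB were used. The median log2 ratio was 0.55 with the first setting and 0.33 with the second. The list has members in common with the virtual memory list, of whose 11 genes none reached 2-fold and 8 had a ratio above 1 (3989 of 8841 genes did). There Klra9 and Klra6 were the highest, at 1.61 (0.66 to 3.45) and 1.42 (0.93 to 2.09), and Klra3 and Eomes, a transcription factor of memory CD8 T cells, the lowest, with Eomes at 0.92 (0.75 to 1.13).

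In the effector list 2 of 8 members were lower by 2-fold or more in convergent cells, where 2.1% of all genes were. Gzmk, granzyme K, had 3 UMIs in convergent and 105 in other cells, a ratio of 0.26 (0.05 to 0.78), and Gzma, granzyme A, 13 and 315 UMIs, a ratio of 0.37 (0.20 to 0.65). Of the 315 Gzma UMIs, 61 came from 1 cell, and the share of cells with a Gzma UMI was close, at 2.84% of convergent and 3.36% of other cells. Gzmk and Gzma passed the UMI minimum mainly through the other cells, so the 2.1% is not a matched background here either. Gzmb and Klre1 were the highest, at 1.43 (0.95 to 2.08) and 1.36 (0.93 to 1.95). Among 14 residency genes only Bhlhe40 passed 2-fold, with 2 and 65 UMIs and an interval of 0.03 to 1.05. Of 10 interferon response genes only Rsad2 did, with 4 and 82 UMIs and an interval of 0.12 to 1.18. None of 8 early activation and none of 3 innate-like T genes did.

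Markers of other cell types were counted in both sets. The summed level of the 4 B cell markers counted was 210.2 CPM in convergent and 229 CPM in other cells, most of it Ighm with 164 and 173 CPM. Ighm had a UMI in 47.9% of convergent and 49.0% of other cells, and no cell held more than 8. Cd74 had 17 and 285 UMIs, a ratio of 0.54 (0.31 to 0.88), and 42 of the 285 came from 1 cell. Ighd stood at 1.57 (0.80 to 2.85) and Cd79b at 0.90 (0.60 to 1.30). The 4 myeloid markers counted summed to 97.9 and 94.7 CPM, most of it Cst3 with 94.2 and 83.2 CPM, while Tyrobp had 0 UMIs in convergent and 54 in other cells and Fcer1g 3 and 57. The Cd40lg level was 9.04 and 6.98 CPM. The gamma delta marker Trgv2, a receptor segment gene outside the calls, had 27 and 95 UMIs, or 20.3 CPM in convergent and 7.90 CPM in other cells, a ratio of 2.58 (1.61 to 3.98). Trgv2 had a UMI in 3.90% of convergent and 2.18% of other cells, and 7 of the 27 UMIs came from 1 cell. The part of these markers in the ratios above was not tested.

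**Figure D5:**
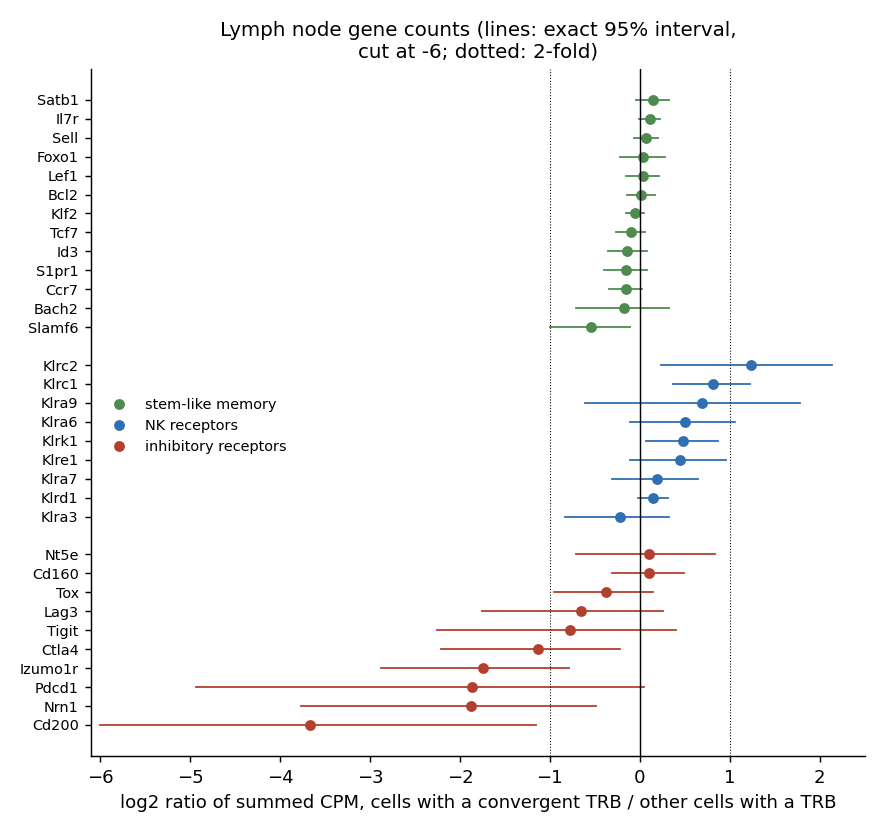
Points give the log2 ratio of summed CPM between 282 lymph node cells with a convergent TRB and 2620 other lymph node cells with a TRB, for the members of 3 gene lists with 50 or more UMIs; lines are exact 95% intervals of counting error, cut at -6, and dotted lines mark 2-fold. Stem-like memory genes lie near 0, NK receptors mostly right of it, and 5 of 10 inhibitory receptor genes left of the lower dotted line.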

How the data were processed

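Per the labels, 4 libraries (gene and receptor libraries of lymph node and skin) were each sequenced on 4 lanes, which the authors pooled. The authors deposited contig tables with UMI counts per contig, and a lymph node table of UMI counts, in whole numbers, for 9428 genes in 3266 cells. Bowtie, RSEM and the build mm10 are named, without versions, per the submitters' processing notes; the tool that assembled the receptors is not named in the sources used here. Contigs flagged productive, full length and high confidence were kept, and a barcode was taken as a cell. No doublet caller was run; barcodes with 2 or more TRB sequences (72 of 1760 in skin, 394 of 3613 in the lymph node) were kept, except for TRA pairing. CDR3 sequences were matched to germline V, D and J segments of GENCODE M21 (mm10). For TRBV10, whose germline entry matched fewer than 6 bases on average, the observed consensus was used. Shares have exact (Clopper-Pearson) 95% binomial intervals, rates exact Poisson intervals, and ratios of summed gene counts exact conditional intervals. All of them treat the items counted as independent. Genes needed 50 UMIs over both sets, receptor segment genes were left out, and 2-fold was the call. Strings were named if they had 4 or more encodings, were among the 5 with most cells overall or in both tissues, or shared a TRA. Segments were named by the most convergent sequences and the largest differences, and genes as the 2 highest and 2 lowest of a list. Further family members, segments and genes were chosen after their values were seen. The members and lists were chosen with earlier results of these data known. The scripts were tested on simulated data. Python 3.11.15, pandas 2.3.3, numpy 2.4.6 and scipy 1.17.1 were used. Alternatives covered UMI minimums, cells with 1 TRB, merged encodings, segment-aware strings, contig flags, shared barcodes, scaling and the UMI filter.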

Additional observations from a re-analysis of the deposited data

How the results depend on the processing

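Of 94 recomputed values, 80 stayed within the interval of the reported value (counts within 1.5 times) and 14 did not, and none changed direction. Asking for 2 or 3 UMIs per contig, dropping the flags for full length and confidence, or leaving out barcodes of both tables moved no receptor value outside its interval. Counting a string with its V and J segment left 71 convergent strings against 163 as reported, 1.60% of strings, a difference of -2.18 bases between V and J (-1.76 as reported), and a lymph node rate of 7.05 same-string pairs per 1000000 pairs, with 100% of pairs of 1 V in both tissues by construction. Merging encodings 1 base apart gave 3.07% convergent strings, a difference of -1.29 bases, rates of 65.4 in skin and 17.7 in the lymph node, 17.4% lymph node pairs with 1 V, and 0% of strings with a shared TRA, since those strings have encodings 1 base apart. Lymph node genes past 2-fold numbered 348 with cells of exactly 1 TRB, where fewer cells were summed, and 343 with no UMI minimum, where more genes were counted, against 218 as reported. The settings without TRBV10 contigs and without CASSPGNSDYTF were chosen after seeing the data. No paired analysis was possible because each tissue is 1 library and the numbered samples are lanes of it, pooled in the files. With a median of 4 UMIs per TRB contig in skin and 7 in the lymph node, a read error and a true encoding 1 base away cannot be told apart for contigs of 1 UMI.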

Other observations

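Some partners of convergent TRB strings were met with many TRB strings. The TRA string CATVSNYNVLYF, seen in 1 skin cell of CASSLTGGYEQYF, was also found in 9 skin cells with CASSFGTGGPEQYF, in 9 skin cells and 1 lymph node cell with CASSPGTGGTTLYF, and in 4 skin cells with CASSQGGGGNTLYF. The TRA string CALERSGSGGKLTL, seen in 20 cells of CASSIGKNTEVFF, was found in 1 lymph node cell each with 5 other TRB strings and in no skin cell with another. In the lymph node gene counts AY036118 had 701 CPM in cells with a convergent TRB and 336 CPM in other cells with a TRB, but 387 of its 931 UMIs in the convergent cells came from 1 cell.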
